A study of Mus musculus with 4 samples.

Results

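Metallothioneins, ferritins and the transferrin receptor handle zinc, copper and iron in the cell, and 5 of their genes were examined here: Mt1, Mt2, Fth1, Ftl1 and Tfrc. They were chosen by symbol among the 13831 gene symbols of a table of nanopore reads, and all 5 had reads in each of the 4 libraries. Each read carries an estimate of the poly(A) tail length of a single RNA molecule in nucleotides (nt). The reads came from J1 mouse embryonic stem cells grown in serum with LIF, either wild type (WT) or with Mov10, an RNA helicase gene, knocked out (KO). The title names poly(A) tail length in both genotypes as what the study set out to determine. There were 2 libraries of either genotype, WT 1 with WT 2 and KO 1 with KO 2. The labels do not say how the knockout was made, whether the line is a single clone, or whether libraries of a genotype came from separate cultures, so p-values measure only the spread between these libraries. The main tests below share this spread among genes, in part for read number and wholly for tail length.

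Metallothioneins are small cysteine-rich proteins that bind zinc and copper, and the factor Mtf1 switches their genes on when free zinc rises by binding metal response elements in their promoters. Ferritin stores iron in a shell made of heavy chains, encoded by Fth1, and light chains, encoded by Ftl1. Tfrc encodes the transferrin receptor, which carries iron-loaded transferrin into the cell. Ferritin and Tfrc mRNAs carry iron-responsive elements: when iron is scarce, the proteins Aco1 and Ireb2 bind them, block translation of ferritin and protect the Tfrc mRNA from decay.

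Mt1 and Mt2 were the members with the longest tails, and their promoters are shown. Their read numbers were high and low in the same WT library, as were those of Fth1 and Ftl1. The 250 bases before each annotated start are given 5′ to 3′ as RefSeq has them on GRCm38.p6, Mt1 at chr8:94178839-94179088 and Mt2 at chr8:94172368-94172617, both on the plus strand. Capitals mark matches to TGCACNC or TGCGCNC, forms of the metal response element core, on either strand.
Mt1: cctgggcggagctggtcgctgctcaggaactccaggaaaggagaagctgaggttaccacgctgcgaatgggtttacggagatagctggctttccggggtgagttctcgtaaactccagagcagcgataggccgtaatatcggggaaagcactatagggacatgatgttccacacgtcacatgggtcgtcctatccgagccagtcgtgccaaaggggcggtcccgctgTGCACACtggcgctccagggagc
Mt2: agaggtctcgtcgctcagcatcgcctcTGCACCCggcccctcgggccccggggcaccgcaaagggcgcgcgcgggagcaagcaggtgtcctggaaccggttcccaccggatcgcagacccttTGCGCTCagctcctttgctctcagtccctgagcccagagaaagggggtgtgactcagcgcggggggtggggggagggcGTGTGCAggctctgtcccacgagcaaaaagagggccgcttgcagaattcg
The upstream stretch of Mt1 held 1 match, beginning 23 bases before the annotated start, and that of Mt2 held 3, beginning 223, 128 and 50 bases before it. In the 50 bases after the start lay 2 more matches for Mt1 and 1 for Mt2, which gives 3 and 4 in the whole window of 300 bases. The annotated start of Mt1 may lie upstream of its main start site, which the files do not locate, so the numbers of matches before the start are not comparable between the genes. Of all 32851 windows of this length in the RefSeq table, 25.7% held at least 1 match, 1.97% at least 3 and 0.517% at least 4. All 5 members had a window there, 7 windows in all. The windows of Fth1 and Ftl1 held 0 matches, and 1 of the 2 windows of Tfrc held 2 that overlap each other. These are matches of letters, and the files hold no measure of binding.

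The libraries held from 351133 to 683239 reads with a tail length above 0 and from 11013 to 12065 symbols. The 5 genes took 0.913% and 0.362% of the reads in WT 1 and WT 2, and 0.574% and 0.553% in KO 1 and KO 2. The targeted gene Mov10 had 26 and 14 reads in WT and 0 and 1 in KO. All 7 stem cell markers checked (Pou5f1, Nanog and Sox2 among them) had reads in every library. In WT their summed level was 8884 and 9187 reads for each 1000000 reads of the library (RPM). In KO it was lower, at 7849 and 6700 RPM. Of 6 fibroblast markers, which would show feeder cells, Thy1 alone had reads, at 5.70 to 14.0 RPM, and Col1a1, Col1a2, Col3a1, Postn and Lum were at 0. Markers of primitive endoderm and of mesoderm had 2 and 3 reads in all.

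Read number was taken as the measure of RNA level. Direct RNA sequencing starts from the tail and reads 1 molecule at a time, so read number was not divided by gene length. The level per cell and the number of cells cannot be told apart in such bulk RNA. Ftl1 was the most read member in every library and Tfrc the least, with Fth1, Mt2 and Mt1 between them in this order.

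**Figure D1:**
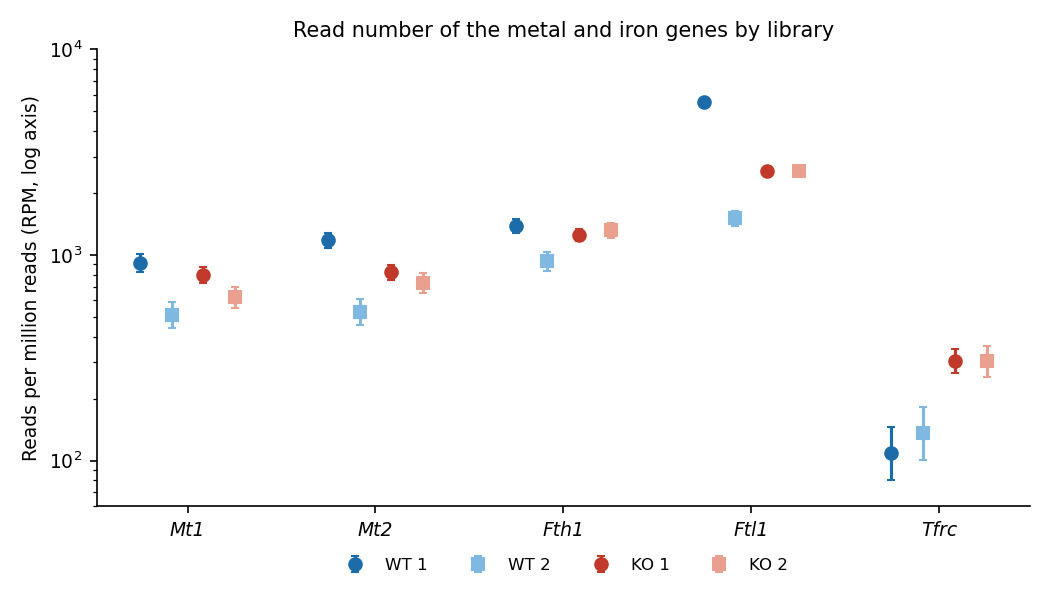
Level of each gene in RPM (log axis). Circles are the replicates numbered 1 and squares those numbered 2, blue for WT and red for KO, and bars are exact 95% binomial intervals, which cover counting error only. Tfrc lies at 109 and 137 RPM in WT and at 306 and 305 RPM in KO, and Ftl1 at 5540.0 RPM in WT 1 against 1509 RPM in WT 2.

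Tfrc was the member whose read number differed most between the genotypes. It had 48 reads in each WT library, or 109 RPM in WT 1 (exact 95% binomial interval 80.5 to 145) and 137 RPM in WT 2 (100.8 to 181). In KO 1 it had 209 reads, or 306 RPM (266 to 350.3), and in KO 2 it had 131 reads, or 305 RPM (255 to 361). Both KO libraries lay above both WT libraries, and the intervals of the genotypes did not overlap. The WT mean was 123 RPM ± 19.4 (SD, n = 2) and the KO mean 305 RPM ± 0.886 (SD, n = 2), a ratio of 2.48. In limma's voom test over 4815 genes the log2 change was 1.20 with a standard error of 0.27. This ranked eleventh by p-value and did not pass the threshold of 0.05 (limma, Benjamini-Hochberg adjusted p = 0.130, unadjusted p = 0.000362).

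That test called 0 of the 4815 genes (0%) at an adjusted p of 0.05, while 498 (10.3%) had an unadjusted p under 0.05. The targeted gene Mov10, with few reads even in WT, did not pass either (limma, log2 change -5.09, adjusted p = 0.0553). Overlap of the libraries in read number was judged over genes on the log2 values of the test, scaled by the median of ratios, and not on RPM. Libraries of the genotypes did not overlap with KO higher for 19.4% of tested genes and with KO lower for 21.3%. Tfrc was thus 1 of 934 genes with both KO libraries higher, and 134 genes (2.78%) had a log2 change at least as large as its own. Leaving out 1 library kept the log2 change of Tfrc between 1.12 and 1.27. The adjusted p fell to 0.0283 without WT 1 and 0.00255 without WT 2, and was 0.714 without KO 1 and 0.994 without KO 2. In each of these fits 1 genotype has a single library, which is assumed to vary like the others. The spread then comes from the other genotype's pairs and is pooled at least in part over genes, not taken from Tfrc alone.

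Reads of Tfrc lay on 2 transcripts in nearly equal parts. ENSMUST00000128285.1 had 30 and 25 reads in WT and 111 and 57 in KO, and ENSMUST00000023486.14 had 18 and 23 reads in WT and 98 and 74 in KO. Each transcript alone had more reads in both KO libraries than in either WT library, including KO 2, whose 430012 reads were close to the 439535 of WT 1. Neither transcript carried reads of another symbol.

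The other 4 members did not differ in read number between genotypes beyond the spread of the WT pair. Ftl1 showed the widest spread: 2435 reads (5540.0 RPM) in WT 1, 530 reads (1509 RPM) in WT 2, 1750 reads (2561 RPM) in KO 1 and 1099 reads (2556 RPM) in KO 2. The KO libraries were alike and lay between the WT libraries. The WT mean was 3525 RPM ± 2850.03 (SD, n = 2) and the KO mean 2559 RPM ± 3.95 (SD, n = 2) (limma, log2 change -0.30, standard error 0.39, adjusted p = 0.846).

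Fth1 had 610 reads (1388 RPM) in WT 1, 327 (931 RPM) in WT 2, 853 (1248 RPM) in KO 1 and 565 (1314 RPM) in KO 2. Its KO libraries also lay inside the WT range, and the log2 change was 0.05 with a standard error of 0.25 (limma, adjusted p = 0.959). There were 3.99 and 1.62 light chain reads for each heavy chain read in WT 1 and WT 2, against 2.05 and 1.95 in the KO libraries.

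Mt1 had 402 reads (915 RPM) in WT 1, 180 (513 RPM) in WT 2, 546 (799 RPM) in KO 1 and 267 (621 RPM) in KO 2. Mt2 had 518 reads (1179 RPM) in WT 1, 185 (527 RPM) in WT 2, 564 (825 RPM) in KO 1 and 314 (730.2 RPM) in KO 2. For both genes WT 1 was the highest library and WT 2 the lowest. The log2 changes were -0.07 (standard error 0.29) for Mt1 and -0.14 (standard error 0.32) for Mt2 (limma, adjusted p = 0.957 and 0.913). Under scaling by total reads, which moves the median of all genes to 0.11, the value of Mt1 turned to 0.040. The ratio of Mt2 to Mt1 reads was 1.29 and 1.03 in WT 1 and WT 2, and 1.03 and 1.18 in KO 1 and KO 2.

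The metallothioneins and ferritins thus shared the order of the WT libraries. After scaling by the median of ratios, WT 1 exceeded WT 2 by 1.02 for Mt1, 1.34 for Mt2, 0.76 for Fth1 and 2.06 for Ftl1 on the log2 scale. The median over all tested genes was 0.01. A gap at least as large in this direction was seen for 7.46%, 3.34%, 13.6% and 0.685% of tested genes in the same order. Tfrc had -0.14. The gaps between KO 1 and KO 2 were 0.40 for Mt1, 0.22 for Mt2, -0.03 for Fth1, 0.04 for Ftl1 and 0.04 for Tfrc.

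These WT gaps decided the genotype values of the 4 genes. The log2 change without WT 1 was 0.44 for Mt1, 0.54 for Mt2, 0.43 for Fth1 and 0.73 for Ftl1. Without WT 2 it was -0.57, -0.80, -0.32 and -1.32 in the same order. In these fits the spread comes from the KO pairs pooled over genes, and the lone WT library is assumed to vary likewise. They are therefore given as effect sizes only. The change of each gene thus took opposite signs with WT 1 or WT 2 left out.

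**Figure D2:**
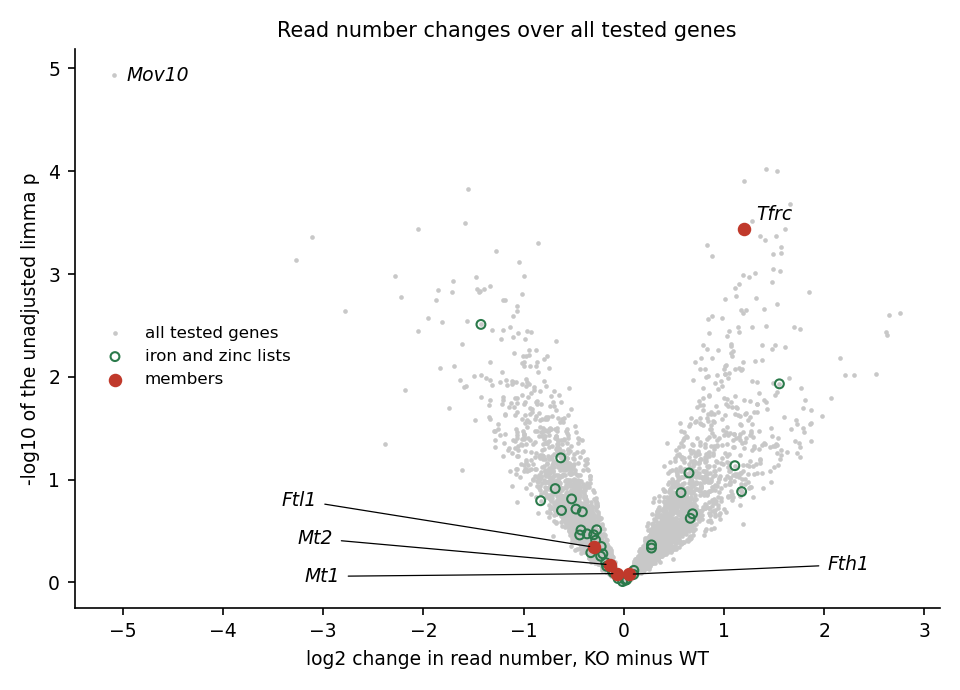
Log2 change in read number (KO minus WT) against the unadjusted limma p on a −log10 scale for 4815 genes in grey, genes of the iron and zinc lists as green circles and the 5 members as red dots. Tfrc stands at 1.20 and the other members lie from -0.30 to 0.05, near the base of the plot.

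Ftl1 has processed copies, and these bear on its count. Its main transcript, ENSMUST00000094434.12, carried 5004 reads under the symbol Ftl1 (86.1% of the gene's reads) and 1416 under Ftl1-ps1, Ftl1-ps2 and Ftl2-ps. The 3 pseudogene symbols together took 21.7% of the family's reads in WT 1 (95% Wilson interval 20.3 to 23.2%) and 42.6% of them in WT 2 (39.5 to 45.9%). For KO 1 the share was 25.2% (23.5 to 27.0%), and for KO 2 it was 28.7% (26.5 to 31.0%). WT 2, the library with the fewest Ftl1 reads, had the largest share on the copies. Reads of near-identical copies cannot be attributed with certainty, so the counts were also summed. The sum was 7076 RPM in WT 1, 2631 RPM in WT 2, 3426 RPM in KO 1 and 3584 RPM in KO 2, in the same order of the WT libraries as for Ftl1 alone.

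Tail length gave a different order of the genes. The mean of the 4 library medians was 161 nt ± 15.7 (SD, n = 4 libraries) for Mt1, 136 nt ± 4.54 for Mt2, 124 nt ± 18.4 for Tfrc, 112 nt ± 8.66 for Ftl1 and 108 nt ± 9.55 for Fth1. The median over the genes tested for tail length was 102 nt in WT 1, 109 nt in WT 2, 109.97 nt in KO 1 and 102 nt in KO 2. Neighbours in this order overlapped in their ranges over the 4 libraries, Mt1 and Mt2 only narrowly (141.0 nt for Mt1 in KO 2, 141.65 nt for Mt2 in WT 2), and Tfrc overlapped Mt2, Ftl1 and Fth1.

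**Figure D3:**
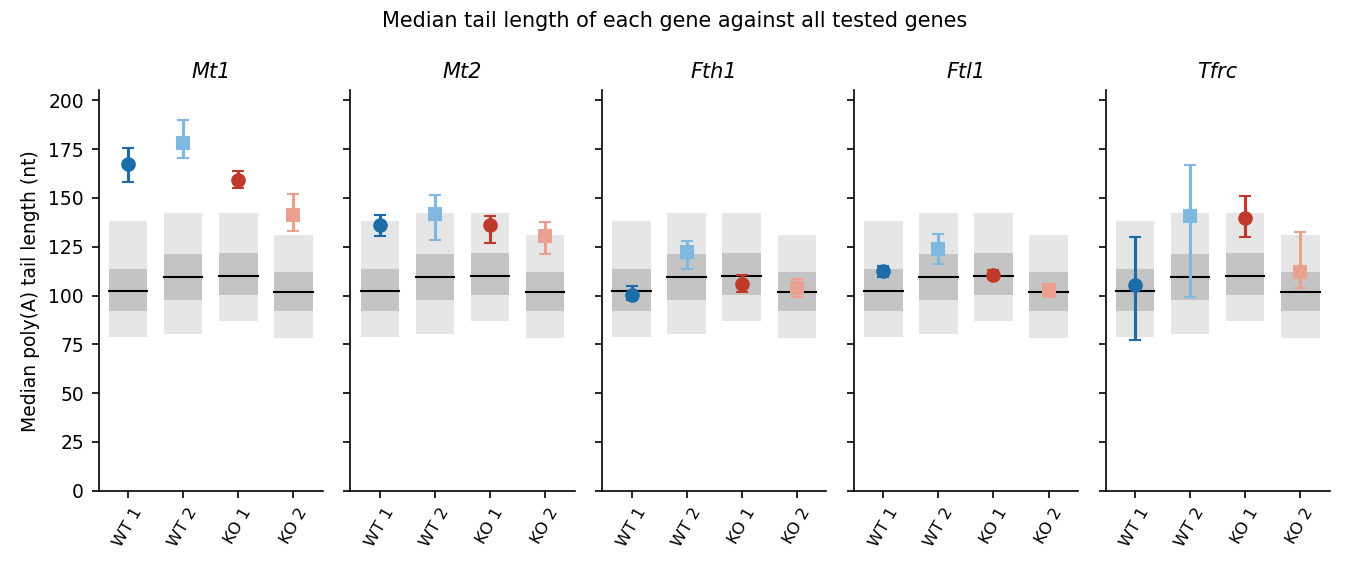
Median tail length of each gene by library in nt (points, WT in blue and KO in red), with 95% intervals of the median from order statistics over reads. Grey boxes span the fifth to the 95th and, darker, the 25th to the 75th percentile of all 1935 tested genes in that library, and the black line is their median. Mt1 lies above the light box in each library, while Fth1 and Ftl1 lie near the line in the KO libraries.

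Mt1 tails were among the longest of all tested genes. Its median was 167 nt in WT 1 (95% order-statistic interval over reads 158 to 175), 178 nt in WT 2 (170.2 to 190), 159 nt in KO 1 (155 to 164) and 141 nt in KO 2 (133 to 152). Among the 1935 genes that had 20 reads or more in every library these values ranked 7, 3, 21 and 37 from the longest. Tails of 150 nt or more made up 59.2% and 75% of Mt1 reads in WT 1 and WT 2, and 57.7% and 44.2% in KO 1 and KO 2. Over all reads of the libraries that share was 18.8% to 23.97%. Tails under 30 nt were seen in 3, 0, 1 and 4 Mt1 reads in the same order.

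Both KO medians of Mt1 lay below both WT medians. The WT mean was 173 nt ± 7.79 (SD, n = 2) and the KO mean 150.1 nt ± 12.9 (SD, n = 2), a difference of -22.7 nt. The log2 change was -0.20 with a standard error of 0.12, which did not pass (limma, adjusted p = 0.9998, unadjusted p = 0.0963). With libraries left out it ranged from -0.12 without KO 2 to -0.29 without KO 1, and it was negative under all 14 alternatives that gave a value.

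The tail length test called 0 of 1935 genes (0%), and 45 (2.33%) had an unadjusted p under 0.05. For 11.8% of the genes both KO medians lay below both WT medians, as they did for Mt1 and Ftl1, and for 14.7% both lay above. No member lay above.

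Mt2 tails were long too and varied little. Its medians were 136 nt in WT 1, 142 nt in WT 2, 136 nt in KO 1 and 131 nt in KO 2, and these exceeded the medians of 91.7% to 94.7% of tested genes. Tails of 150 nt or more made up 38.1% to 43.2% of its reads. For WT the mean was 139 nt ± 3.87 (SD, n = 2), for KO it was 133 nt ± 4.00 (SD, n = 2), and the libraries overlapped (limma, log2 change -0.06, standard error 0.12, adjusted p = 0.9998).

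Mt1 tails were longer than Mt2 tails in each library, although both genes encode metallothioneins and lie next to each other on chromosome 8. The difference in medians was 31.1 nt in WT 1, 36.6 nt in WT 2, 23.0 nt in KO 1 and 10.5 nt in KO 2. On the log2 scale it averaged 0.24 ± 0.10 (SD, n = 4 libraries), with Mt1 longer in 4 of 4. An exact sign-flip permutation test over the libraries gave p = 0.13, the smallest that 4 libraries allow, and 0.19 after Benjamini-Hochberg adjustment over 3 pairs. Within WT the difference averaged 0.31 ± 0.02 (SD, n = 2) and within KO 0.17 ± 0.08 (SD, n = 2). An exact permutation test of this gap between genotypes gave p = 0.333, the smallest that 2 libraries against 2 allow.

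**Figure D4:**
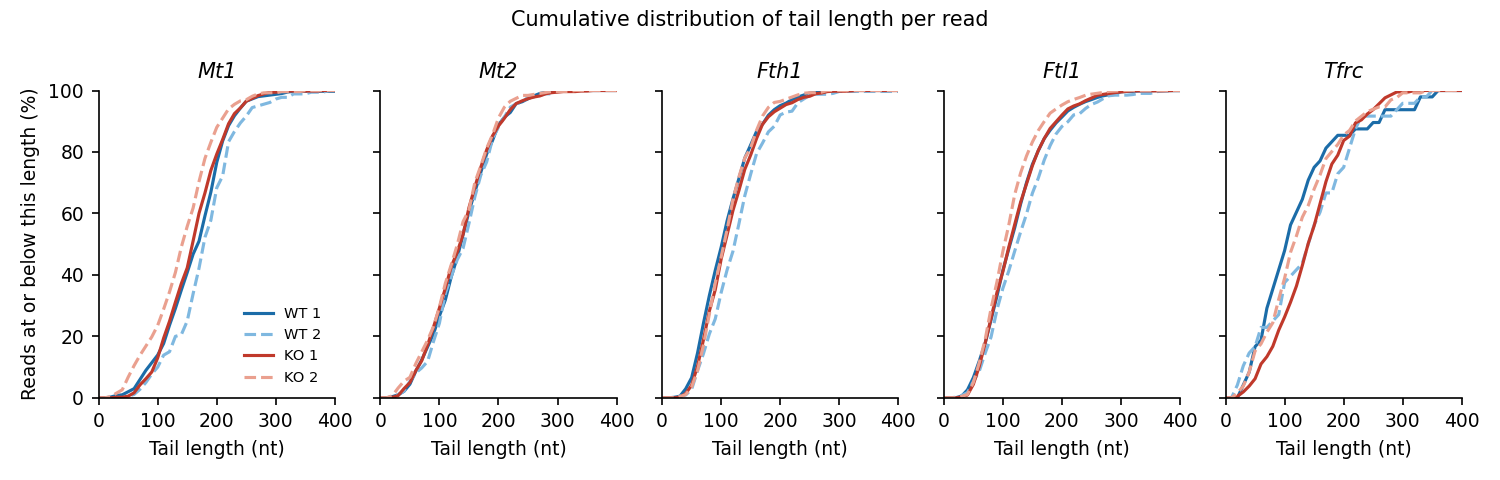
Cumulative share of reads by tail length in nt for each gene, WT in blue and KO in red, replicates numbered 1 as solid and those numbered 2 as broken lines. The Mt1 curves are spread, with KO 2 to the left and WT 2 to the right, and the Mt2 curves lie close together. The Tfrc curves of WT step visibly because they rest on 48 reads each.

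The ferritin genes had tails of ordinary length. Ftl1 medians were 113 nt in WT 1 (95% order-statistic interval 109 to 115), 124 nt in WT 2 (116 to 131), 111 nt in KO 1 (109 to 113) and 103 nt in KO 2 (99.2 to 106). They exceeded 73.6%, 79.2%, 51.7% and 52.3% of tested genes in that order. Both KO medians were thus below both WT medians, KO 1 only just.

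Ftl1 had a WT mean of 118 nt ± 7.83 (SD, n = 2) and a KO mean of 107 nt ± 5.62 (SD, n = 2). The log2 change was -0.15 with a standard error of 0.10 (limma, adjusted p = 0.9998, unadjusted p = 0.131). It was -0.11 when the pseudogene reads were pooled with those of Ftl1. The reads under Ftl1-ps1 had medians of 112 nt in WT 1, 107 nt in WT 2, 106 nt in KO 1 and 100.3 nt in KO 2, each below the Ftl1 median of the same library.

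Fth1 medians were 100.5 nt in WT 1, 122 nt in WT 2, 106 nt in KO 1 and 104 nt in KO 2. WT 2 stood above the other 3 libraries, and the KO libraries lay inside the WT range. The log2 change was -0.08 with a standard error of 0.11 (limma, adjusted p = 0.9998) and turned to 0.064 without WT 2. Of its reads, 93.4% lay on ENSMUST00000025563.7. The heavy and light chain genes did not differ in tail length in 1 direction: Fth1 minus Ftl1 was -12.2 nt in WT 1, -1.70 nt in WT 2, -4.73 nt in KO 1 and 1.34 nt in KO 2 (exact sign-flip permutation test, p = 0.25, adjusted p = 0.25).

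Tfrc tails varied between libraries of the same genotype. The medians were 105 nt in WT 1 (95% order-statistic interval 77.2 to 130.0), 141 nt in WT 2 (99.5 to 167), 139.9 nt in KO 1 (129.8 to 151) and 112 nt in KO 2 (104 to 133). WT 2 and KO 1 were high, WT 1 and KO 2 low, and the genotypes overlapped. The log2 change was 0.04 with a standard error of 0.15 (limma, adjusted p = 0.9998), and it turned to -0.17 without WT 1 and -0.12 without KO 1. Tails under 30 nt made up 4.17% of Tfrc reads in WT 1 (95% Wilson interval 1.15 to 14.0%) and 10.4% of those in WT 2 (4.53 to 22.2%). For KO 1 the share was 1.91% (0.747 to 4.82%), for KO 2 3.82% (1.64 to 8.62%). These shares rest on 2, 5, 4 and 5 reads and their intervals overlap.

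Tfrc tails were longer than Fth1 tails by 4.83 nt in WT 1, 18.5 nt in WT 2, 33.96 nt in KO 1 and 8.13 nt in KO 2. The mean log2 difference was 0.20 ± 0.15 (SD, n = 4 libraries) with Tfrc longer in 4 of 4 (exact sign-flip permutation test, p = 0.13, adjusted p = 0.19). With the mean of log2 tail lengths in place of the median it was 0.07.

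**Figure D5:**
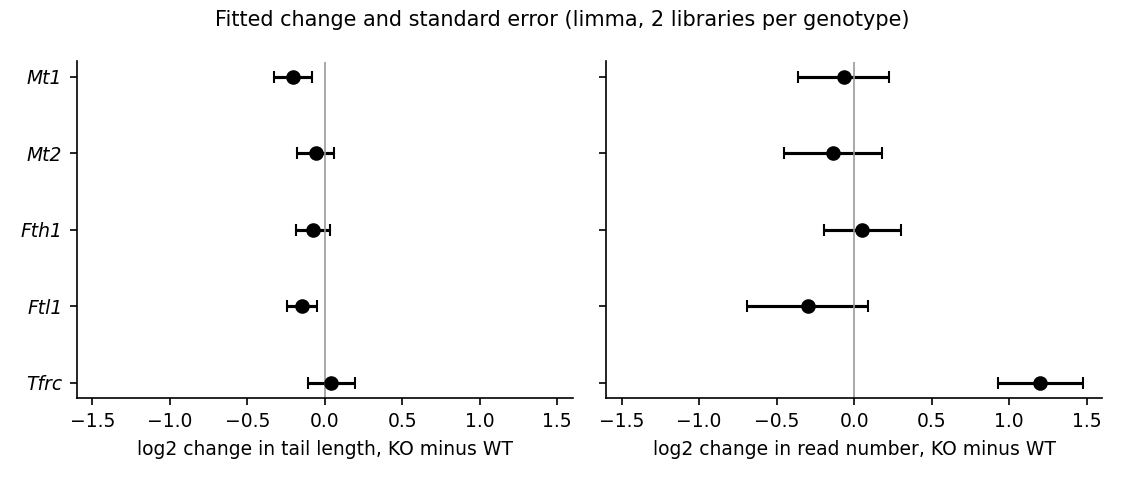
Fitted log2 change (KO minus WT) of each gene with its standard error, tail length on the left and read number on the right, on the same scale. The tail length values lie from -0.20 to 0.04. In read number Tfrc stands at 1.20 and the other members lie within 1 standard error of 0.

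The deposited table also sorts genes into classes by Mov10 binding and m6A, a methylated adenosine in mRNA; how the classes were drawn is not stated. Fth1 was in the class of Mov10 targets with m6A and Ftl1 in that of targets without m6A. Mt1 and Mt2 were non-targets, and Tfrc was in no class. Lower tail medians in both KO libraries were seen for Mt1 and Ftl1, as for 11.8% of tested genes. A link to the classes was not tested.

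For each member the 2 genes with the most similar read number across the 4 libraries were found among 1272 genes that averaged 50 reads or more. Likeness was the root mean square difference of centred log2 values. For Tfrc they were Ehd1 (0.08), with 29 and 29 reads in WT and 117 and 86 in KO, and Alyref (0.10), with 27 and 27 reads in WT and 100 and 69 in KO. For Mt1 they were H3f3b (0.04) and Stmn1 (0.06), and for Mt2 Bsg and Pgk1 (0.07 each). Fth1 was nearest to Gm10925 (0.03) and Banf1 (0.05). Ftl1 was nearest to Chchd10 (0.18) and Pgk1 (0.21), farther than the nearest genes of the other members. Pgk1, a glycolytic enzyme gene, had 1024 RPM in WT 1 and 399 RPM in WT 2.

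Other genes of iron and zinc handling were taken from 7 lists of 71 genes. Reads were found for 66 of them, and 38 had enough for the read number test. None was called (limma), and 2 of the 38 had an unadjusted p under 0.05, beside 498 (10.3%) of all 4815 genes. The median log2 change in read number over the 38 genes was -0.18, beside -0.01 over all 4815 genes, and it was 0.033 without WT 1. After scaling, both KO libraries were higher for 5 genes (13.2%, beside 19.4% over all genes) and lower for 8 (21.1%, beside 21.3%). Of the 14 list genes in the tail length test, 0 were called and the median log2 change was 0.08, beside 0.01 over all 1935 genes. The 1 list gene with an unadjusted p under 0.05 for tail length (beside 2.33% over all 1935 genes) was Hmox1, which breaks down haem. Its medians were 115 and 100.1 nt in WT and 148 and 142 nt in KO (limma, log2 change 0.43, standard error 0.22, adjusted p = 0.9998, unadjusted p = 0.0467).

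The regulators that read iron levels were few in reads. Ireb2, an iron regulatory protein, had 36.4 and 62.7 RPM in WT and 82.0 and 81.4 RPM in KO, so both KO libraries were higher (limma, log2 change 0.65, standard error 0.36, adjusted p = 0.554). Ncoa4, the receptor that takes ferritin to lysosomes, had 38.7 and 88.3 RPM in WT and 89.3 and 99.997 RPM in KO (log2 change 0.57, standard error 0.36). Aco1, the other iron regulatory protein, had only 10 reads in WT and 20 in KO and was not tested. The iron chaperone genes Pcbp1 and Pcbp2 had log2 changes of -0.23 and 0.02. Of the 5 tested genes of this list, both KO libraries were higher for 2 (40%, beside 19.4% of all tested genes). They were lower after scaling for 1 (20%, beside 21.3%), Fbxl5, named here after its value was seen. Its log2 change was -0.62 with a standard error of 0.47. In RPM its libraries overlapped (22.8 and 54.1 in WT, 23.4 and 25.6 in KO).

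Of the transferrin cycle and iron entry list, 3 of 10 genes were tested. Slc39a14, a zinc and iron importer, had 13.7 and 17.1 RPM in WT and 39.5 and 34.9 RPM in KO (limma, log2 change 1.11, standard error 0.58, adjusted p = 0.534). Vps35 and Snx3, which act in the sorting of endosomal cargo including the transferrin receptor, had log2 changes of -0.63 and -0.21. Vps35 had 107 and 111 RPM in WT and 65.9 and 90.7 RPM in KO. Both KO libraries of Vps35 were thus lower (limma, standard error 0.32, adjusted p = 0.510). Trf, the gene of transferrin itself, and Tfr2, the second transferrin receptor, were too low to test. The iron export and mitochondrial carrier list had 0 of 8 genes with enough reads.

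Mt3, a metallothionein gene in the same cluster as Mt1 and Mt2, had 8 and 5 reads in WT and 37 and 24 in KO, or 18.2 and 14.2 RPM against 54.2 and 55.8 RPM. Both KO libraries were higher, with a log2 change of 1.55 and a standard error of 0.55 (limma, adjusted p = 0.322, unadjusted p = 0.0117). The zinc exporter Slc30a1, a known target of Mtf1, had 25.0 and 25.6 RPM in WT and 19.0 and 27.9 RPM in KO (log2 change -0.33). Mtf1 itself had 9 reads in WT and 15 in KO and was not tested. Slc39a7 and Slc30a5, zinc transporters of the secretory pathway, had log2 changes of -0.23 and 0.66.

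For the 13 tested genes of iron-sulphur cluster assembly the median log2 change was -0.30 in read number, with 3 of 13 above 0 (23.1%, beside 49.4% of all tested genes). After scaling, both KO libraries were lower for 5 (38.5%, beside 21.3%). Among these, the genotypes overlapped in RPM for Glrx5 (86.5 and 131 in WT, 77.6 and 97.7 in KO) and Ciao1 (41.0 and 51.3 in WT, 45.4 and 46.5 in KO). The most read were Hspa9, Glrx5, Ciapin1 and Iscu, with log2 changes of -0.27, -0.41, -0.30 and 0.10. Hscb, a co-chaperone of cluster transfer named here after its value was seen, had 132 and 65.5 RPM in WT and 43.9 and 30.2 RPM in KO (limma, log2 change -1.43, standard error 0.42, adjusted p = 0.204). In the haem list, 9 genes were tested, and Pgrmc1, Urod and Hmox1 had log2 changes of 0.02, -0.28 and -0.37. Among regulators of ferritin and metallothionein genes, Nfe2l2 had -0.52, Mafg 0.69 and Keap1 -0.01.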

How the data were processed

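RNA with poly(A) was enriched on oligo(dT) beads by the authors, then multiplexed and sequenced directly on a MinION, per the labels' protocols. The submitters' processing notes name minimap2 2.20. The basecaller, the tail length tool, the genome build, the annotation and read filters are not given in the sources used here. The deposited table has 1 line per read (1903922 reads) with a transcript, a symbol and a tail length in nt, per the file headers, with no normalization recorded. The 3 reads of length 0 were left out.

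Symbols were used as deposited, although 53.4% of reads lay on transcripts with several symbols. Tail length was tested with limma 3.58.1 in R 4.3.3 on log2 median tail length (at least 20 reads per library, variance trend on mean reads). Its standard errors followed mean reads alone, not the spread of a gene's own libraries. Iscu and Glrx5, both at a mean of 44.75 reads, each had 0.189. Read number was counted here and tested with limma's voom (0.5 reads added, median-of-ratios scaling over the tested genes, mean of at least 10 reads). P-values were adjusted by Benjamini-Hochberg over all tested genes. Both tests were also run on simulated data with a spread set in advance, which does not measure the spread between these libraries. Intervals cover read sampling only. Tables were made with Python 3.11.15, pandas 2.3.3 and scipy 1.17.1.

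Gene names are RefSeq and Ensembl symbols; Ensembl identifiers are ENSMUSG00000031765.8 (Mt1), ENSMUSG00000031762.7 (Mt2), ENSMUSG00000024661.7 (Fth1), ENSMUSG00000050708.16 (Ftl1) and ENSMUSG00000022797.16 (Tfrc). Named list genes were those with the most reads in each list, up to 4, of which 1 is not reported here. The members, lists and tests were chosen with earlier results of these data known. Alternatives changed the summary, filters, scaling, weights, model, symbol assignment and pairing, or left out each library.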

Additional observations from a re-analysis of the deposited data

How the results depend on the processing

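The 5 tail length changes and 3 tail length differences between genes kept their direction under the alternatives that gave a value, except with libraries left out for Fth1 (-0.22 to 0.064, positive without WT 2) and Tfrc (-0.17 to 0.25, -0.17 without WT 1 and -0.12 without KO 1). The number of genes called for tail length was 0 except with at least 10 reads per library (1) and with libraries left out (0 to 2). For read number it was 7 under scaling by total reads, 1 under upper quartile scaling, with 2 reads added, on transcripts with a dominant symbol, and with size factors over all symbols, 96 without the filter on low reads, and 0 to 451 with libraries left out (93 without WT 1, 451 without WT 2).

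The log2 change of Tfrc in read number was between 1.12 and 1.32 under all 15 alternatives. It passed the threshold without the filter (1.21, limma adjusted p = 0.0257). Without WT 1 and without WT 2 it was 1.12 and 1.27, with the spread taken from the KO pairs pooled over genes. Leaving out libraries moved Mt1 from -0.57 to 0.44, Mt2 from -0.80 to 0.54, Fth1 from -0.32 to 0.43 and Ftl1 from -1.32 to 0.73, and Mt1 was 0.13 without KO 2 and 0.040 under scaling by total reads. The median read number change of the iron and zinc lists was 0.032 without the filter and from -0.18 to 0.033 with libraries left out.

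The correlation of same-numbered deviations over genes was 0.0135 for tail length and 0.0155 for read number. Counting error lowers such a correlation, so it cannot tell whether same-numbered libraries were handled together. A fit with the replicate number as a block called 66 genes for read number and gave Tfrc 1.20 (limma adjusted p = 0.0193); for tail length it called 0. The alternatives on symbol copies and on size factors over all symbols were chosen after seeing the data. Single-symbol transcripts left no value for Mt1 and Ftl1, transcripts with a dominant symbol none for Ftl1, and at least 50 reads per library none for the tail length of Tfrc. The 48 reads per WT library limit the tail length of Tfrc to intervals wider than 50 nt.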

Other observations

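Mt4, Mt3, Mt2 and Mt1 follow each other in this order on mouse chromosome 8 in the RefSeq annotation. Mt4, best known from stratified epithelium, had 0 reads in WT 1 and 1 in WT 2, and 11 reads in KO 1 and 10 in KO 2. This was at most 8.39 RPM in WT 1 and 15.9 RPM in WT 2 by the exact 95% binomial limits, against 16.1 RPM (8.04 to 28.8) in KO 1 and 23.3 RPM (11.2 to 42.8) in KO 2. Mt4 was below the minimum of the read number test. Without that minimum its log2 change was 3.05 with a standard error of 0.81 (limma, adjusted p = 0.0351), a value that depends on the 0.5 reads added. The neighbours Mt3 and Mt4 thus had more reads in both KO libraries, while Mt2 and Mt1 had KO levels between those of the WT libraries.

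Ferritin heavy chain-like symbols of the Fthl17 family had more reads in WT. The 4 symbols Fthl17a, Fthl17c, Fthl17d and Fthl17f together had 10 reads in WT 1 and 22 in WT 2, against 2 in KO 1 and 0 in KO 2. In RPM this was 22.8 (10.9 to 41.8) and 62.7 (39.3 to 94.9) in WT, and 2.93 (0.355 to 10.6) in KO 1 with an upper limit of 8.58 in KO 2. Most of these reads, 21 of 32 in WT, were of Fthl17c (without the minimum, limma log2 change -3.73, standard error 0.83, adjusted p = 0.00546). The symbols are close paralogs, so reads cannot be assigned to 1 of them with certainty. The fit without the minimum called 96 of 13831 symbols, and the main test 0 of 4815. Both groups of genes were picked after their values were seen, so these p-values are not support for them.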
